A study of Homo sapiens with 6 samples.

Results

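The small nucleolar RNA (snoRNA) host genes are lncRNA genes whose introns carry snoRNAs. All lncRNA genes of GENCODE 44 named SNHG with a number were taken, together with *GAS5*, *ZFAS1* and *DANCR*, which are hosts with names of their own. This gave 31 of the 62700 genes in the files. The study silenced the lncRNA *RAB30-DT* in SK–Hep1, an adherent human liver tumor line that it describes as endothelial-derived, and sequenced poly-A selected RNA. The 3 control libraries are titled as carrying a control shRNA and have the genotype label WT. The 3 knockdown libraries are titled as carrying an shRNA against *RAB30-DT* and have the genotype label RAB30-DT knockdown. The paper describes more than a single shRNA vector against *RAB30-DT*, and the titles do not say which these libraries carry. Per the study's methods, shRNAs were delivered by lentivirus and stable cells were selected with puromycin, so both groups share vector and selection as far as the titles go. Neither the age of the cultures nor separate cultures for the replicates were stated, so the p-values measure the spread between these libraries only.

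snoRNAs are short RNAs of the nucleolus that pair with ribosomal RNA and guide its chemical modification. Those of the C/D class direct 2′-O-methylation with the protein fibrillarin, and those of the H/ACA class direct pseudouridylation with dyskerin. In human cells most of them are cut out of introns, and the host is either a protein-coding gene, often one for the translation machinery, or an lncRNA. Several hosts begin with a 5′ terminal oligopyrimidine (5′TOP) tract, which places their transcripts in the same growth-regulated class as ribosomal protein mRNAs. The spliced host RNA often has a short open reading frame and is then degraded by nonsense-mediated decay. A poly-A library measures this spliced RNA and does not keep free snoRNAs.

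Annotated starts are shown for 4 hosts that were higher in every knockdown library and have a pyrimidine tract at an annotated start. They are also shown for *SNHG8* and *DANCR*, which have none at the GENCODE or the RefSeq start. Each window holds 20 bases before the start and 40 from it, read 5′ to 3′ on the strand of the gene from hg38, with the first pyrimidine run in capitals where it opens with C and has at least 4 more pyrimidines. The *GAS5* window is chr1:173867950-173868009 on the minus strand. The other windows are on the plus strand: *ZFAS1* chr20:49278622-49278681, *SNHG29* chr17:16439017-16439076, *SNHG32* chr6:31834896-31834955, *SNHG8* chr4:118278688-118278747 and *DANCR* chr4:52712481-52712540. The *SNHG32* start is that of RefSeq (GRCh38.p14) and the others are those of the GENCODE canonical transcript. For the 4 hosts with a tract, a start that has one was shown.
GAS5: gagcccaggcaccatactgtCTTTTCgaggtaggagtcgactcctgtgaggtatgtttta
ZFAS1: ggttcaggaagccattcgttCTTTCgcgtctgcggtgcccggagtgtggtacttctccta
SNHG29: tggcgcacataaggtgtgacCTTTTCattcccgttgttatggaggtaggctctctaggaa
SNHG32: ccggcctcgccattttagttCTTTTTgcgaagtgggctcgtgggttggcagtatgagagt
SNHG8: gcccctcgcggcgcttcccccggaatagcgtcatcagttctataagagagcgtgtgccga
DANCR: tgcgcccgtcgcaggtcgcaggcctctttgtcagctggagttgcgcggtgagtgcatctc

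Such a run stood at the GENCODE canonical start of 4 of the 31 genes (*GAS5*, *SNHG12*, *SNHG29* and *ZFAS1*), against 3.72% of 38912 genes. It stood at the RefSeq start of 7 of the 27 genes with a RefSeq promoter (*SNHG4*, *SNHG5*, *SNHG12*, *SNHG18*, *SNHG19*, *SNHG32* and *ZFAS1*), against 4.07% of 35116 promoters. The tables place starts differently. *GAS5* and *SNHG29* had no run at their RefSeq start, and *SNHG32* had none at its GENCODE start. In the same promoters, 250 bases before to 50 after the start, the palindrome CACGTG was found in 2 of 27 (*SNHG7* and *SNHG30*) and in 7.26% of all. TGACGTCA, also a palindrome, was found in 0 of 27 and in 1.85% of all.

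The snoRNAs within the hosts that were higher in all knockdown libraries are mostly of the C/D class. Examples are shown with the C box (TGATGA) and the D box (CTGA) in capitals, or, for the H/ACA snoRNA *SNORA24*, the ACA that lies 3 bases before its end. The *GAS5* examples were read at the RefSeq positions, since GENCODE 44 lists no snoRNA inside *GAS5* whereas RefSeq lists 11. They are *SNORD76* at chr1:173866635-173866715 and *SNORD44* at chr1:173865968-173866028, both on the minus strand. The others are on the plus strand: *SNORD12C* of *ZFAS1* at chr20:49278940-49279028, *SNORD49B* and *SNORD49A* of *SNHG29* at chr17:16439505-16439576 and chr17:16440036-16440106, *SNORD48* of *SNHG32* at chr6:31835263-31835326 and *SNORA24* of *SNHG8* at chr4:118279190-118279320.
SNORD76: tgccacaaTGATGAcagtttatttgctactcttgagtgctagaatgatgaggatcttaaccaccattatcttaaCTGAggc
SNORD44: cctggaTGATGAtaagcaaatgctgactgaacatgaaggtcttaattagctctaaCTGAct
SNORD12C: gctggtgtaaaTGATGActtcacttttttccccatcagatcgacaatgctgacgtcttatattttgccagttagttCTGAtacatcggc
SNORD49B: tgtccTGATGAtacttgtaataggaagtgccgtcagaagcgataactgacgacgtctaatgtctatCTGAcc
SNORD49A: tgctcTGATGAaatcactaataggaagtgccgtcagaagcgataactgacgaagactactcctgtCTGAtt
SNORD48: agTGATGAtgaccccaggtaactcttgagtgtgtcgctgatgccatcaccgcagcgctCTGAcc
SNORA24: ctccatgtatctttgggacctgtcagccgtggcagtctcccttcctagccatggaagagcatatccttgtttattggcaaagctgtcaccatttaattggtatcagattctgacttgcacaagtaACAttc
*SNORD49A* and *SNORD49B* share an unbroken stretch of 35 bases.

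*RAB30-DT* was at 18.16, 11.51 and 13.91 TPM in control replicates 1, 2 and 3 and at 11.94, 10.85 and 6.50 TPM in knockdown replicates 1, 2 and 3. The groups overlapped, with a log2 fold change of −0.55 (SE 0.27, limma adjusted p = 0.355) and an exact 2-sided permutation p of 0.2, where the smallest this design allows is 0.1. The paper reports a qPCR check of the *RAB30-DT* knockdown in SK–Hep1 cells, without saying whether these cultures were the ones measured. The knockdown labels were kept as given, and each direction below is that of the libraries so labelled. Endothelial markers did not reach a mean of 1 TPM in any of 10 cases, and only 1 of 10 hepatocyte markers did (*SERPINA1*, with mean TPM of 22.0 in control and 33.5 in knockdown cells), whereas 9 of 10 mesenchymal markers did. The hepatocyte markers summed to 18.2 to 24.3 TPM in control and 28.3 to 37.2 TPM in knockdown libraries, with *ALB*, *APOB*, *TTR*, *HNF4A* and *CYP3A4* at 0 in all, and the endothelial markers to 0.72 to 3.62 and 1.15 to 2.45 TPM. Their part in the results was not tested. TPM do not hold the number of reads, so sequencing depth is unknown and counting error could not be computed.

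The hosts covered a wide range of levels. In each library between 27 and 30 of the 31 genes were above 0 TPM. Over all libraries, 8 genes had a mean of at least 100 TPM, 13 had from 10 to under 100 TPM, 6 had from 1 to under 10 TPM and 4 were below 1 TPM. *SNHG29* alone gave 60.2% to 64.2% of the summed TPM of the 31 genes in each library. The 4 lowest were not tested. *SNHG27* was listed at 0 in all libraries, *SNHG18* and *SNHG22* were at no more than 0.82 TPM in any, and *SNHG31* ranged from 0.17 to 0.88 TPM in control and from 0.21 to 2.19 TPM in knockdown cells.

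**Figure D1:**
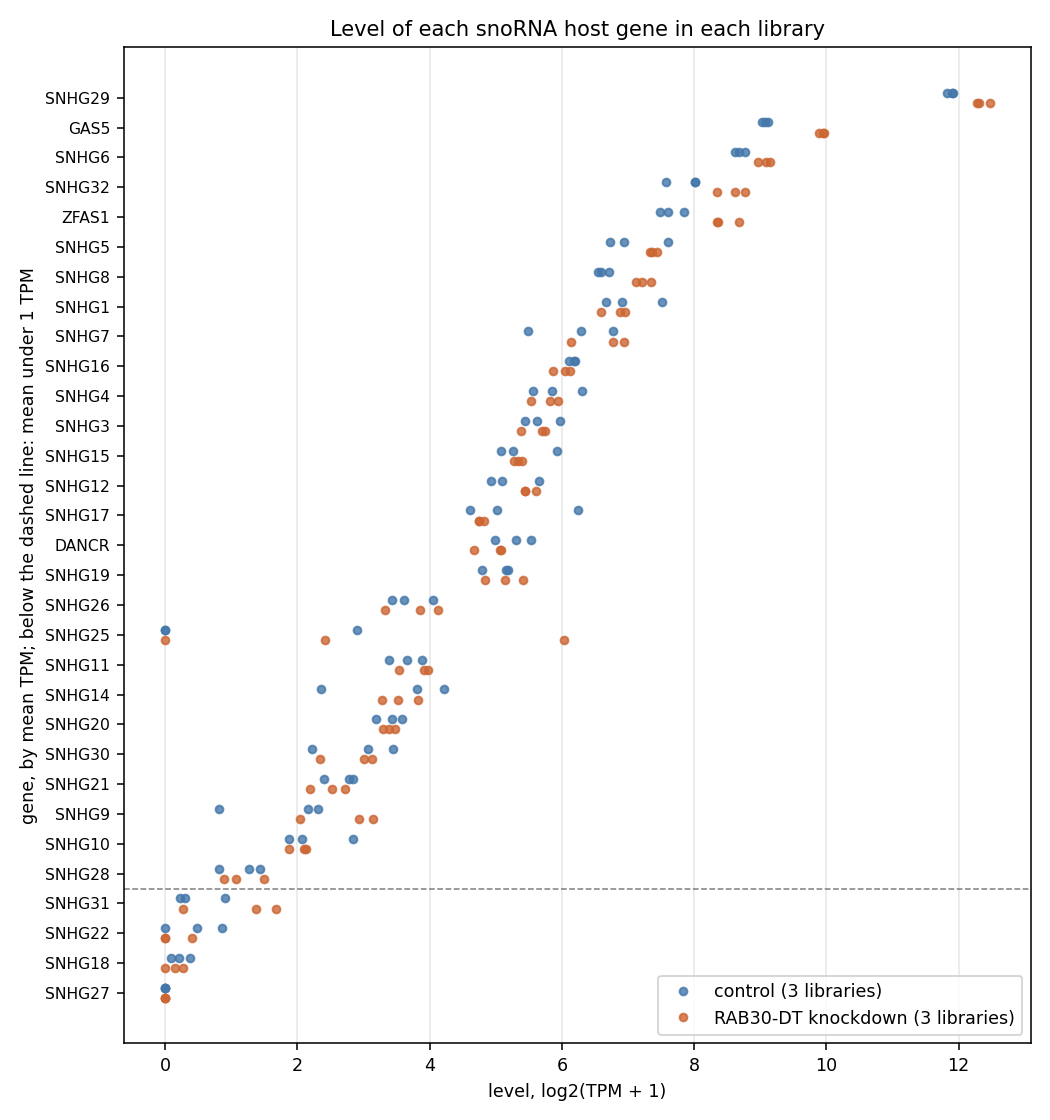
Level of the 31 snoRNA host genes as log2(TPM + 1) on the horizontal axis, with 1 point per library (blue, control; orange, RAB30-DT knockdown) and genes ordered by mean TPM; genes under the dashed line had a mean below 1 TPM. Among the 8 genes at the top, all but SNHG5 and SNHG1 have their orange points to the right of all blue points.

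The comparison asked which hosts differed in level between knockdown and control cells. *GAS5* rose in knockdown cells, and no host was called lower. Of the 27 tested genes 1 was called at an adjusted p under 0.05 (limma on log2(TPM + 1), Benjamini–Hochberg over 14020 genes), against 1.04% of all tested genes in either direction and 0.371% called higher. At an unadjusted p under 0.05 there were 6 (22.2%), near the 16.8% of all tested genes. In 6 of the 27 (22.2%) the lowest knockdown library exceeded the highest control library, and this held for 9.89% of all tested genes and 17.5% of the 1565 tested lncRNA genes outside the group. The reverse was found in 0 of the 27, against 13.4% of all tested genes and 82 of the 1565 other tested lncRNA genes. The 6 were *SNHG29*, *GAS5*, *SNHG6*, *SNHG32*, *ZFAS1* and *SNHG8*, all of them among the 8 most abundant hosts. The log2 fold change was positive for 15 (55.6%) and negative for 12 of the 27. It was positive for 46.3% of all tested genes and for 1038 of the 1565 other tested lncRNA genes. The median was 0.09, against −0.04 for all tested genes and 0.19 for the other tested lncRNA genes.

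*GAS5* (ENSG00000234741.10, chr1:173858559-173868882, minus strand) was named for its accumulation in growth-arrested cells, and its spliced RNA is a known target of nonsense-mediated decay. It was at 552.97, 521.41 and 536.56 TPM in control replicates 1 to 3 and at 948.94, 992.62 and 998.34 TPM in knockdown replicates 1 to 3. The groups were far apart and tight within themselves, at 537 ± 15.8 TPM against 980 ± 27.0 TPM (SD, n = 3 each). The log2 fold change was 0.87 (SE 0.11, limma adjusted p = 0.0240), a ratio of mean TPM of 1.82. It stayed between 0.83 and 1.04 under all 20 alternatives, but the adjusted p was 0.0756 with no filter on low genes, 0.114 without control replicate 2, and 0.0924, 0.153 and 0.126 without knockdown replicates 1, 2 and 3. *ZBTB37* overlaps it on the opposite strand, with means of 2.59 TPM in control and 1.69 TPM in knockdown libraries. Whether reads were counted by strand was not stated.

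*ZFAS1* (ENSG00000177410.13, chr20:49278178-49299600, plus strand) lies next to the start of *ZNFX1* and hosts the *SNORD12* family. Its TPM were 229.85, 193.79 and 178.17 in control and 408.19, 325.46 and 328.70 in knockdown replicates 1 to 3. The lowest knockdown value was thus well above the highest control value, and the group means were 201 ± 26.5 and 354 ± 46.9 TPM (SD, n = 3 each). The log2 fold change of 0.82 (SE 0.16) did not pass the threshold, with a limma adjusted p of 0.0616. Without control replicate 1 the adjusted p was 0.0290, and median-of-ratios scaling gave 0.0493. *ZNFX1*, on the opposite strand, had a mean of 14.2 TPM in control and 17.8 TPM in knockdown libraries.

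*SNHG29* (chr17:16438767-16480249, plus strand), host of *SNORD49A*, *SNORD49B* and *SNORD65*, was the most abundant of the 31. It was at 3622.55, 3878.76 and 3826.85 TPM in control and at 4961.06, 5084.89 and 5689.38 TPM in knockdown replicates 1 to 3. Each knockdown library was higher, with means of 3776 ± 135 and 5245 ± 390 TPM (SD, n = 3 each). The log2 fold change was 0.47 (SE 0.10, limma adjusted p = 0.0668), and quantile normalization reduced it to 0.18. Its canonical transcript has 443 bases, close to the 370 to 420 bases for which fragments were selected, and the part of this length in its TPM was not tested.

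*SNHG32* (chr6:31834608-31839766, plus strand), host of *SNORD48* and *SNORD52*, was at 190.42, 257.63 and 258.35 TPM in control and at 325.97, 393.51 and 435.39 TPM in knockdown replicates 1 to 3. In both groups replicate 1 was the lowest, and the groups did not overlap. Its log2 fold change was 0.71 (SE 0.18, limma adjusted p = 0.108).

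*SNHG8* (chr4:118278703-118285316, plus strand), host of *SNORA24*, was at 95.25, 104.20 and 92.65 TPM in control and at 147.77, 138.05 and 162.39 TPM in knockdown replicates 1 to 3, a log2 fold change of 0.61 (SE 0.14, limma adjusted p = 0.0949). *SNHG6*, host of *SNORD87*, was at 391.92, 410.40 and 437.95 TPM in control and at 569.13, 501.19 and 544.87 TPM in knockdown replicates 1 to 3, a log2 fold change of 0.38 (SE 0.12, limma adjusted p = 0.178). For both, the gap between the groups was wider than the range of the control libraries. For all of the 6, an exact 2-sided permutation test gave p = 0.1, the smallest that 3 libraries against 3 allow. Groups without overlap always give this value, so it repeats how the 6 were picked and adds no support.

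**Figure D2:**
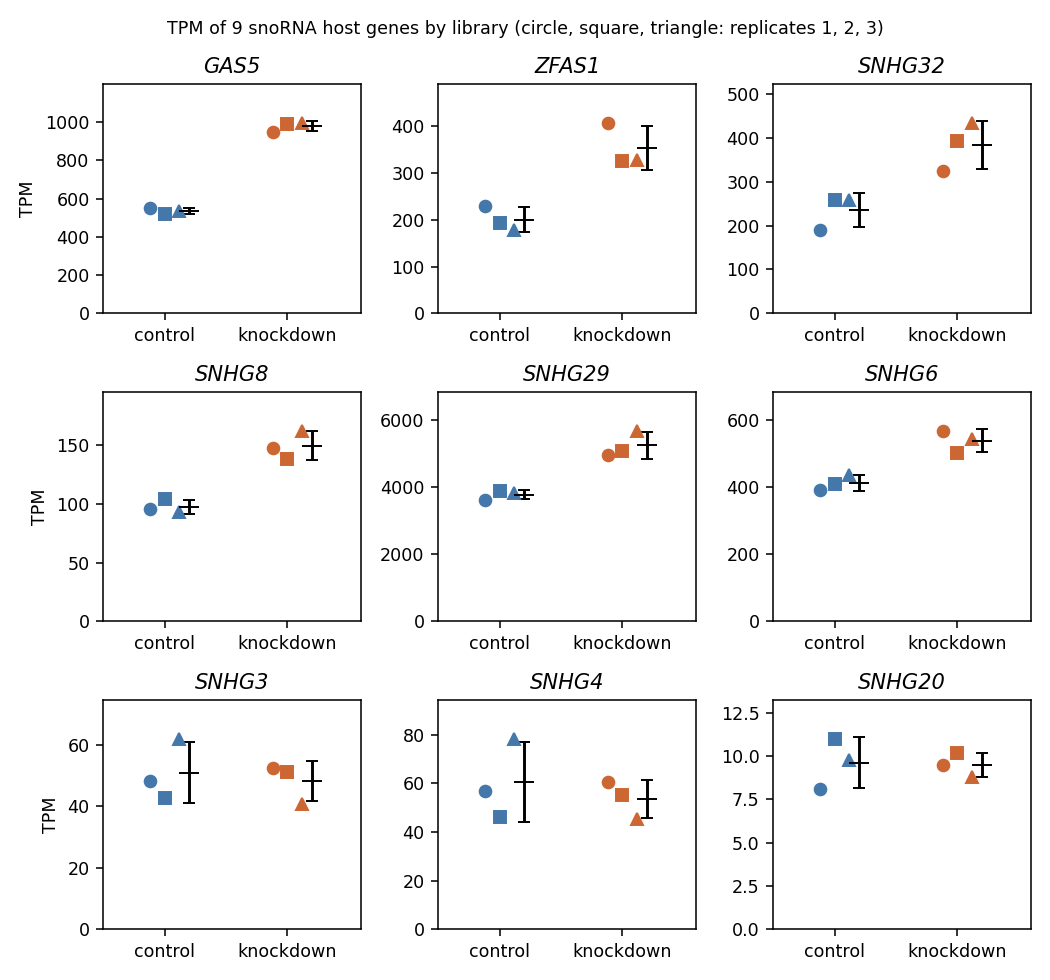
TPM (vertical axis, from 0) of 9 snoRNA host genes in the 3 control (blue) and 3 knockdown (orange) libraries, with the mean and SD of each group in black. GAS5, ZFAS1, SNHG32, SNHG8, SNHG29 and SNHG6 show no overlap of the groups, whereas SNHG3, SNHG4 and SNHG20 do overlap.

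The hosts in the study's table of lncRNAs linked to splicing and stemness in tumors, *SNHG3*, *SNHG4* and *SNHG20*, had overlapping groups. *SNHG3*, host of the *SNORA73* pair, was at 48.22, 42.51 and 61.95 TPM in control and at 52.52, 51.24 and 40.77 TPM in knockdown replicates 1 to 3 (log2 fold change −0.07, SE 0.20, limma adjusted p = 0.893). *SNHG4*, host of *SNORA74A*, was at 57.02, 46.15 and 78.46 TPM in control and at 60.70, 55.39 and 45.26 TPM in knockdown replicates 1 to 3 (log2 fold change −0.14, SE 0.23, limma adjusted p = 0.792). *SNHG20*, which holds the Cajal body RNA *SCARNA16* and no annotated snoRNA, was at 8.09, 11.01 and 9.75 TPM in control and at 9.50, 10.18 and 8.79 TPM in knockdown replicates 1 to 3 (log2 fold change −0.01, SE 0.20, limma adjusted p = 0.986). The sign of all 3 differed with the processing. *SNHG3* lies on the same strand as *RCC1*, which had a mean of 139 TPM in control and 95.6 TPM in knockdown libraries, *SNHG4* on that of *MATR3*, at 21.8 and 24.8 TPM, and *SNHG20* on that of *SEC14L1*, at 73.0 and 65.2 TPM, so the division of reads between these pairs is uncertain.

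The largest fitted changes of all 27 hosts, those of *SNHG25* and *SNHG9*, came from genes whose libraries disagreed. *SNHG25*, host of *SNORD104* and *SNORA50C*, was listed at 0, 0 and 6.44 TPM in control and at 4.32, 0 and 64.58 TPM in knockdown replicates 1 to 3, and its log2 fold change of 1.85 had an SE of 1.42 (limma adjusted p = 0.546). Without knockdown replicate 3 it was 0.24. *SNHG9*, host of *SNORA78*, was at 0.75, 3.95 and 3.48 TPM in control and at 6.62, 3.11 and 7.86 TPM in knockdown replicates 1 to 3 (log2 fold change 0.95, SE 0.46, limma adjusted p = 0.345). Both are short, with canonical transcripts of 311 and 339 bases, below the selected fragment length.

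In the other direction *SNHG17*, host of several *SNORA71* snoRNAs, had the most negative value. It was at 23.36, 31.29 and 75.03 TPM in control and at 25.86, 27.20 and 25.78 TPM in knockdown replicates 1 to 3, so the difference came from control replicate 3. Its log2 fold change was −0.52 (SE 0.38, limma adjusted p = 0.528) and −0.04 without that library. *DANCR*, host of *SNORA26* and named for its role in keeping cells undifferentiated, was at 45.46, 30.80 and 38.75 TPM in control and at 32.80, 32.41 and 24.45 TPM in knockdown replicates 1 to 3 (log2 fold change −0.34, SE 0.21, limma adjusted p = 0.450). Its lowest control library was below 2 of the knockdown libraries.

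*SNHG1*, which carries *SNORD22* and *SNORD25* to *SNORD31*, was at 119.40, 100.59 and 181.10 TPM in control and at 122.68, 116.34 and 95.05 TPM in knockdown replicates 1 to 3 (log2 fold change −0.23, SE 0.23). *SNHG10* was at 3.20, 2.67 and 6.16 TPM in control and at 3.36, 2.66 and 3.28 TPM in knockdown cells (log2 fold change −0.23, SE 0.30). *SNHG21* was at 4.26, 5.87 and 6.17 TPM in control and at 5.60, 3.56 and 4.72 TPM in knockdown cells (log2 fold change −0.20, SE 0.24). In *SNHG1* and *SNHG10* control replicate 3 again stood above all other libraries. The remaining tested hosts, *SNHG5*, *SNHG7*, *SNHG11*, *SNHG12*, *SNHG14*, *SNHG15*, *SNHG16*, *SNHG19*, *SNHG26*, *SNHG28* and *SNHG30*, had log2 fold changes from −0.15 (*SNHG16*) to 0.43 (*SNHG7*), each with overlapping groups. The value of *SNHG7* was 0.084 without control replicate 1 and 0.73 without control replicate 3. *SNHG14*, the long imprinted host of the *SNORD115* and *SNORD116* clusters, had a log2 fold change of 0.09 but a ratio of mean TPM of 0.938, since control replicate 3 was low at 4.11 TPM.

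**Figure D3:**
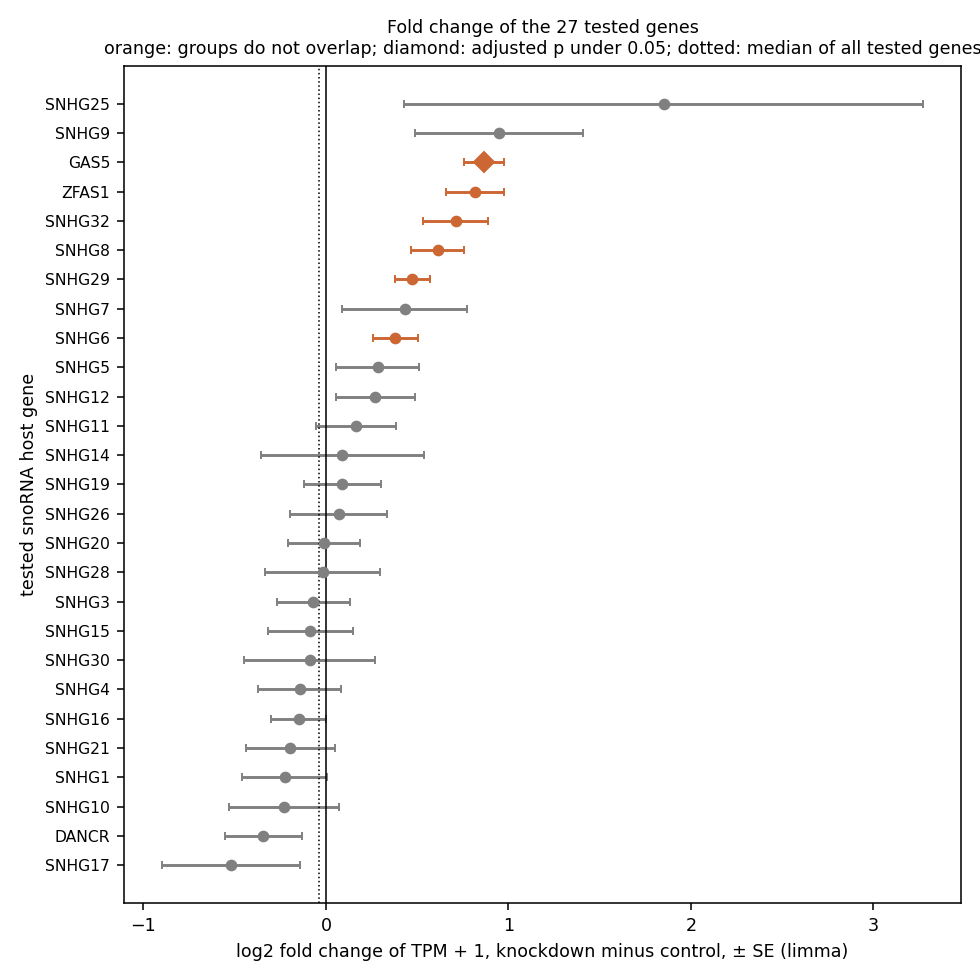
Log2 fold change of TPM + 1, knockdown minus control, with its limma SE, for the 27 tested snoRNA host genes; orange marks genes whose groups do not overlap, the diamond marks the gene with an adjusted p under 0.05 (GAS5) and the dotted line is the median of all tested genes (−0.04). The 6 orange genes all lie above 0, bars as long as 1 SE also miss 0 for several genes with overlapping groups, and SNHG25 has the widest bar (SE 1.42).

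Control replicate 3 was the highest of the 3 control libraries for 16 of the 27 tested hosts and the highest of all 6 libraries for 10. Without it, 9 of the 27 had all knockdown libraries above the remaining controls, the added ones being *SNHG5*, *SNHG12* and *SNHG15*, while the share among all tested genes was 13.1%. In the same setting 1 of the 27 was lower without overlap, against 22.5% of all tested genes. The libraries also differed in their trend with gene GC content, with a Spearman rho over genes of −0.61, 0.29 and 0.49 in control and of −0.52, 0.02 and 0.34 in knockdown replicates 1 to 3, so that replicates 1 of both groups leaned to GC-poor genes. The tested hosts had a median GC content of 46.7%, against 48.0% for all tested genes. With this trend removed in each library, 4 hosts were called (*GAS5*, *SNHG29*, *SNHG32* and *ZFAS1*), all higher, among 1176 genes called.

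Summed over the 31 genes, the hosts made up 0.577% to 0.636% of all TPM in control and 0.815% to 0.900% in knockdown libraries. The sum was 6056 ± 295 TPM in control and 8460 ± 466 TPM in knockdown cells (SD, n = 3 each), a ratio of 1.40. Of the difference, 61.1% came from *SNHG29* and 18.4% from *GAS5*. The 25 hosts outside the 6 without overlap summed to 684.51, 676.06 and 1026.70 TPM in control and to 786.68, 801.33 and 837.35 TPM in knockdown replicates 1 to 3, and these groups overlapped. Because TPM sum to a fixed total in each library, more RNA of the hosts and less of other genes cannot be told apart.

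The rows of the snoRNAs themselves held little. GENCODE 44 places 139 snoRNA genes inside 26 of the hosts on the same strand, 84 of them in *SNHG14*, and 126 were at 0 in all libraries. Of the 13 above 0, most were seen in a single library. *SNORA44* in *SNHG12* was at 12.13 TPM in control replicate 3 and at 58.03 and 32.75 TPM in knockdown replicates 2 and 3, and at 0 in the rest. *SNORA73B* in *SNHG3* was at 9.11, 14.19 and 5.66 TPM in control replicates 1 to 3 and at 0 in all knockdown libraries. Since free snoRNAs carry no poly-A tail, reads in these rows may belong to the host, and no test was made.

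The protein-coding snoRNA hosts were set beside the lncRNA hosts. Of the 28 ribosomal protein genes that carry snoRNAs, all had a positive log2 fold change (median 0.43) and 24 had groups that did not overlap, against 9.89% of all tested genes, but 1 passed the test, *RPL10*. It was at 4573.25, 4672.33 and 4359.51 TPM in control and at 6014.29, 6547.58 and 6678.94 TPM in knockdown replicates 1 to 3 (log2 fold change 0.50, SE 0.09, limma adjusted p = 0.0491), a call that was lost without control replicate 2 or 3, without any of the knockdown libraries and under 6 other alternatives, among them median-of-ratios scaling and quantile normalization. Of the 162 other protein-coding hosts tested, 55 were positive and 107 negative (66.0%, against 53.7% of all tested genes; median −0.13), with 0 called. Without overlap, 9 were higher (5.56%, against 9.89% of all tested genes) and 29 lower (17.9%, against 13.4%). Among 13 tested lncRNA hosts with other names, 9 were positive (69.2%) and 0 were called (median 0.28). Positive values were found in 46.3% of all tested genes and in 1038 of the 1565 tested lncRNA genes outside the SNHG, *GAS5*, *ZFAS1* and *DANCR* group. Of the 13 hosts, *LINC00888* had the largest change, at 7.80, 6.24 and 4.77 TPM in control and at 11.94, 11.90 and 12.21 TPM in knockdown replicates 1 to 3 (log2 fold change 0.86, SE 0.22, limma adjusted p = 0.107).

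The 20 genes taken with a known 5′TOP tract that encode no ribosomal protein were mostly translation factors. Of these, 17 were positive (85%, against 46.3% of all tested genes), with a median of 0.30. Without overlap, 8 were higher (40%, against 9.89% of all tested genes) and 1 was lower (5%, against 13.4%), and 0 were called. The largest change was that of *TPT1*, a 5′TOP mRNA for the translationally controlled tumor protein, with a log2 fold change of 0.57 (SE 0.22, limma adjusted p = 0.244). *LARP1*, which binds 5′TOP tracts, was at 154.00, 128.09 and 115.92 TPM in control and at 106.72, 105.83 and 85.92 TPM in knockdown replicates 1 to 3 (log2 fold change −0.41, SE 0.17, limma adjusted p = 0.283). The log2 fold changes of *LARP4* and *LARP1B* were −0.33 and −0.25.

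Genes for the snoRNA-binding proteins and their assembly had mostly negative values, but none was called. Of 18 tested, 15 were negative (83.3%, against 53.7% of all tested genes; median −0.25), and 6 were lower (33.3%, against 13.4%) and 1 was higher (5.56%, against 9.89%) without overlap. *RUVBL1*, an ATPase of snoRNP assembly, was at 126.16, 127.76 and 131.44 TPM in control and at 69.21, 82.07 and 84.26 TPM in knockdown replicates 1 to 3 (log2 fold change −0.71, SE 0.15, limma adjusted p = 0.0726). The log2 fold changes of *DKC1*, *NOP58* and *NOP56* were −0.55, −0.53 and −0.50. Of 21 nonsense-mediated decay factors, 14 were negative (66.7%, against 53.7% of all tested genes), with a median of −0.14. Without overlap, 7 were lower (33.3%, against 13.4% of all tested genes) and 0 were higher (against 9.89%), and 0 were called. The largest change was that of *CASC3*, a part of the exon junction complex, at 67.18, 76.13 and 77.11 TPM in control and at 44.87, 50.47 and 44.72 TPM in knockdown replicates 1 to 3 (log2 fold change −0.64, SE 0.15, limma adjusted p = 0.0980).

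**Figure D4:**
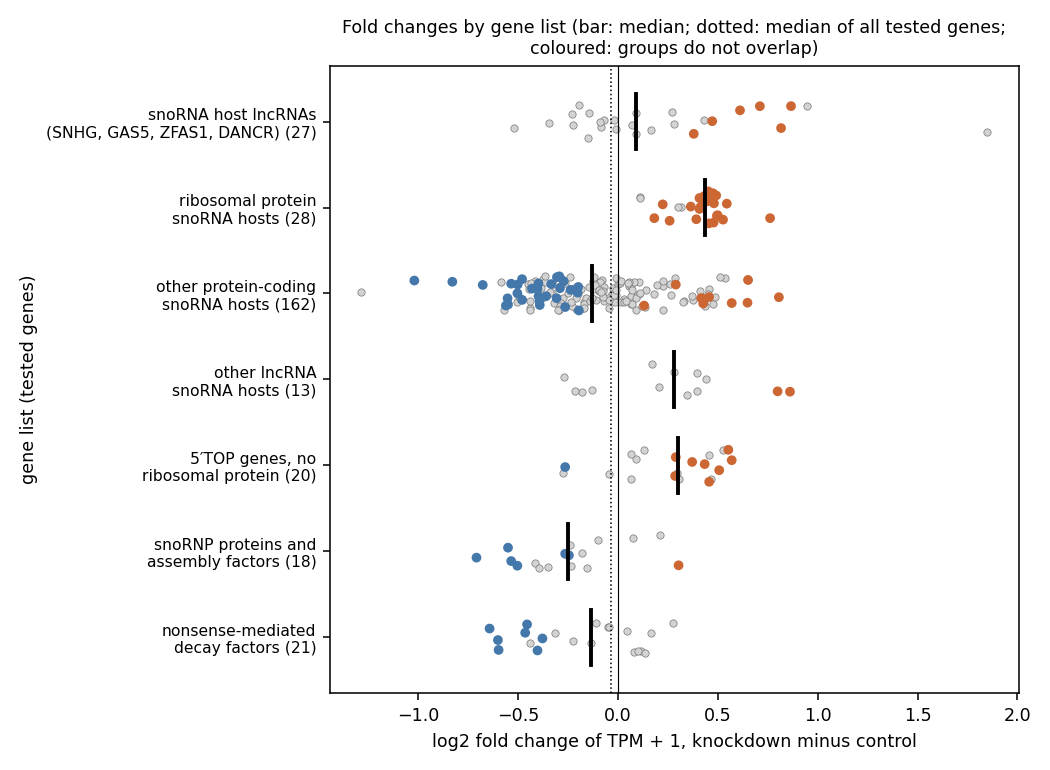
Log2 fold change of TPM + 1, knockdown minus control, for the tested genes of 7 lists (number in parentheses); black bars are medians, coloured points are genes whose groups do not overlap (orange higher, blue lower) and the dotted line is the median of all tested genes. The ribosomal protein hosts lie to the right of 0 (median 0.43), the snoRNA host lncRNAs spread to both sides (median 0.09) and the snoRNP proteins lie mostly to the left (median −0.25).

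Among the tested hosts, 8 had a pyrimidine run at either annotated start, and 7 of these had a positive log2 fold change (median 0.38), 4 of them without overlap. Of the 19 with no run found, 8 were positive (median −0.02) and 2, *SNHG6* and *SNHG8*, had groups that did not overlap. *SNHG6*, *SNHG9*, *SNHG15* and *SNHG25* are among the 19 but had no RefSeq promoter. Only their GENCODE start was read, so a run at another start may have been missed. Among all tested genes 46.3% were positive and 9.89% were higher without overlap, and the 19 were near these shares. Whether the run or the abundance of the hosts has a part in these values was not tested. Over the 27 genes, the log2 fold change had a Spearman rho of 0.37 with the log2 mean TPM, where it was −0.17 over all 14020 tested genes, and of 0.20 with GC content. These values describe genes of the same libraries, which are not independent of each other.

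**Figure D5:**
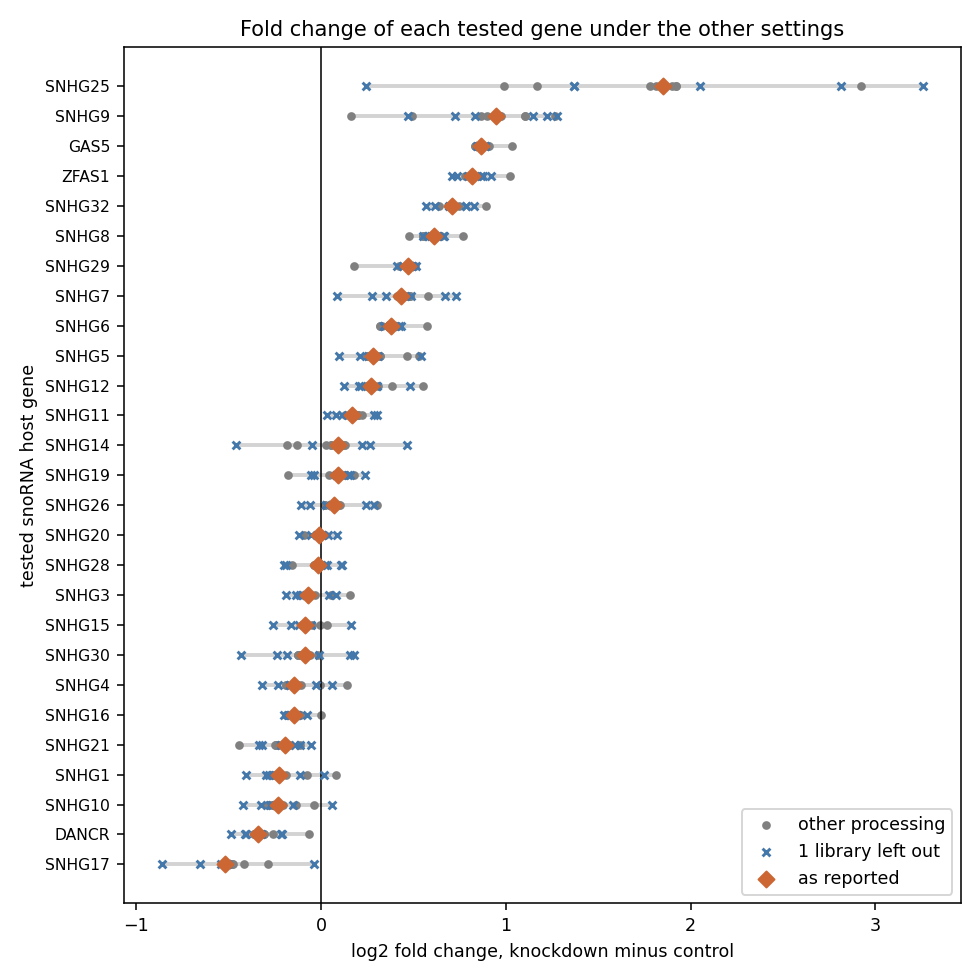
Log2 fold change, knockdown minus control, of each tested snoRNA host gene as reported (orange diamond), with 1 library left out (blue crosses) and under the other processing alternatives (grey points). GAS5, ZFAS1, SNHG32, SNHG8, SNHG29 and SNHG6 stay to the right of 0 in all of them, while SNHG3, SNHG4 and SNHG20 lie on both sides.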

How the data were processed

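The deposited files hold gene-level TPM, transcript abundances scaled for length and to a fixed total, for 6 libraries, 3 control and 3 knockdown, made by the authors. The labels' processing notes name fastp and HISAT2 2.0.5 on hg38, whereas the paper's methods name fastp, STAR and RSEM with a later GENCODE release. All 62700 gene identifiers were those of GENCODE 44, used here for names, positions and GC content. Groups and replicate numbers came from the sample titles. Overlapping genes share reads in ways the files do not show.

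TPM were analysed as log2(TPM + 1), without scaling between libraries, in the 14020 genes whose mean over all libraries reached 1 TPM. limma 3.58.1 (lmFit, eBayes with trend, 2-sided) was run in R 4.3.3 and calls were made where the p, adjusted by Benjamini–Hochberg, was under 0.05. Fold changes on this scale understate those of low genes. The fit was tested on simulated data, where changes as small as most reported here were not called. A gene that was not called may thus still differ between the groups. The members and gene lists were chosen with earlier results of these data known. Named in full were the hosts of the study's table, *GAS5*, *ZFAS1*, *DANCR*, called hosts and the 5 largest changes in each direction. From each list came the called gene or else the largest change. A row without a gene symbol, largest among the other protein-coding hosts, was at 13.48 TPM in control replicate 3 and at 0 elsewhere. *SNHG6*, *SNHG8*, *SNHG29*, *DKC1*, *NOP56* and *NOP58* were also chosen after their values were seen. Sequences and motifs were read with Python 3.11.15 and pysam 0.24.0. Libraries were treated as unpaired, since the labels state no shared batch. Deviations of same-numbered libraries correlated at 0.41, 0.04 and 0.28, and whether these libraries share an effect was not tested. Alternatives were other pseudocounts, filters and scalings, GC and length trends, library weights, robust estimation, a replicate block and each library left out.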

Additional observations from a re-analysis of the deposited data

How the results depend on the processing

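All 20 alternatives kept the log2 fold changes of *GAS5*, *ZFAS1*, *SNHG29*, *SNHG32*, *SNHG8* and *SNHG6* positive, and none called a host lower. The number of hosts called, and called higher, was 1 as reported. It was 0 with no filter, 2 with median-of-ratios scaling, with quantile normalization, without mitochondrially encoded genes and with the length trend removed, 4 with the GC trend removed, 8 with arrayWeights, and 0 to 2 with 1 library left out. With the replicate block it was 5, with or without removal of the GC trend, although the labels do not show that same-numbered libraries belong together. Over all genes the calls numbered 146 as reported, 13 with no filter, 1176 with the GC trend removed, 861 with the replicate block, 1062 with both, 3218 with arrayWeights (library weights from 0.316 to 4.39) and 12 to 489 with 1 library left out. The cause was not tested.

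The number of genes of the supporting lists called was 1 as reported. It was 0 with a pseudocount of 5, no filter, median-of-ratios scaling, quantile normalization, the length trend removed and robust estimation, 2 with a mean of at least 5 TPM and without mitochondrially encoded genes, 26 with the GC trend removed and with the replicate block, 23 with both, 76 with arrayWeights and 0 to 12 with 1 library left out. The highest of these was without control replicate 1. The share called over all tested genes moved as well. It was 1.04% as reported, 8.39% with the GC trend removed, 6.14% with the replicate block and 7.57% with both. With arrayWeights it was 23.0%, and with 1 library left out 0.0856% to 3.49%. Of the 76 calls with arrayWeights, 23 were ribosomal protein hosts, of which 28 were tested in the main fit.

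The sign changed in 31 of the values of single hosts, none of them called. With 1 library left out, the log2 fold change ranged from −0.41 to 0.014 for *SNHG1*, −0.32 to 0.057 for *SNHG4*, −0.19 to 0.079 for *SNHG3*, −0.26 to 0.16 for *SNHG15*, −0.053 to 0.24 for *SNHG19*, −0.11 to 0.29 for *SNHG26*, −0.46 to 0.47 for *SNHG14*, −0.12 to 0.084 for *SNHG20*, −0.44 to 0.18 for *SNHG30*, −0.42 to 0.058 for *SNHG10* and −0.20 to 0.11 for *SNHG28*. For *SNHG1*, *SNHG3*, *SNHG4*, *SNHG10*, *SNHG15* and *SNHG30* the highest value was that without control replicate 3. Of the changes of sign under other processing, arrayWeights gave 0.078 for *SNHG1*, 0.14 for *SNHG4*, 0.16 for *SNHG3*, −0.18 for *SNHG19* and −0.19 for *SNHG14*. Quantile normalization gave 0.056 for *SNHG3* and 0.030 for *SNHG15*, median-of-ratios scaling 0.023 for *SNHG20* and 0.0050 for *SNHG28*, and removal of the length trend −0.13 for *SNHG14*. The median of the tested hosts stayed between 0.03 and 0.21, and *RAB30-DT* between −0.70 and −0.24. The depth of the libraries is unknown, so what it limits cannot be stated.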
